A study of Mus musculus with 8 samples.

Results

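The genes described here are 4 galectins, *Lgals1*, *Lgals3*, *Lgals8* and *Lgals9*, together with *Lgals3bp*, the gene of a galectin-3-binding glycoprotein. They were found by symbol in a bulk RNA-seq table of mouse CD8+ T cells, which holds 22520 genes and assembled transcripts, and all 5 were present as 1 row each. The cells were taken from spleens, stimulated with anti-CD3 and anti-CD28 antibodies and IL-2, and harvested on day 6. From day 3 the medium held either 40 µM DADA, diisopropylamine dichloroacetate, an inhibitor of pyruvate dehydrogenase kinase, or the DMSO solvent, with 4 libraries in each group. The comparison asks which transcripts differed with DADA in T cells that were under persistent TCR stimulation in both groups. The submitters call the libraries biological replicates but do not say whether each came from its own mouse, so the p-values measure the spread between these libraries. The spleens were from wild-type mice. The study's methods name male C57BL/6J mice among those bought, with their age, but do not tie strain, sex or age to these libraries. The culture stands for the chronic stimulation that drives T cell exhaustion, and no tumor cells were added.

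Galectins are lectins that bind β-galactosides, mainly N-acetyllactosamine on branched glycans. They are made without a signal peptide, act in the cytosol and nucleus, and also leave the cell, where they cross-link surface glycoproteins. On T cells such cross-linking is known to alter receptor clustering, signaling, adhesion and survival. Galectin-1 is a prototype galectin that pairs with itself, galectin-3 is the chimera type with a long N-terminal tail, and galectin-8 and galectin-9 are tandem-repeat galectins, which carry a pair of carbohydrate-binding domains on one chain. LGALS3BP is a secreted scavenger-receptor protein and not a lectin of this family. *Lgals9* and *Lgals3bp* are known interferon-stimulated genes.

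The deposited values are FPKM, fragments scaled to transcript length and library size, so that levels of different genes can be set side by side. Their depth, estimated from the steps between low values, was 13680000 to 16420000 fragments per library with DMSO and 15120000 to 18660000 with DADA. This estimate is rough, because multiples of a depth give similar steps and it depends partly on the range searched. Differences were tested with limma on log2(FPKM + 1) over the 10666 genes and transcripts with 1 FPKM or more in 4 or more libraries, with Benjamini-Hochberg adjustment, and a gene is called at an adjusted p-value under 0.05. Fold changes on this scale are understated for genes of low FPKM. The exact permutation test over the 70 assignments of libraries cannot give a two-sided p below 0.0286.

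The transcripts of 3 of the 5 genes rose with DADA, that of *Lgals1* fell slightly, and that of *Lgals8* was not called. All 5 passed the filter, and 4 were called, where 66.2% of all genes tested were called in this comparison. The difference was largest for *Lgals3*, with a ratio of mean FPKM of 3.68, followed by *Lgals3bp* at 3.48 and *Lgals9* at 1.76. The groups did not overlap for the 4 called genes, as for 60.6% of all genes tested (28.4% higher with DADA and 32.2% lower). In bulk libraries, a change in the share of cells that express a gene and a change in RNA per cell cannot be told apart.

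**Figure D1:**
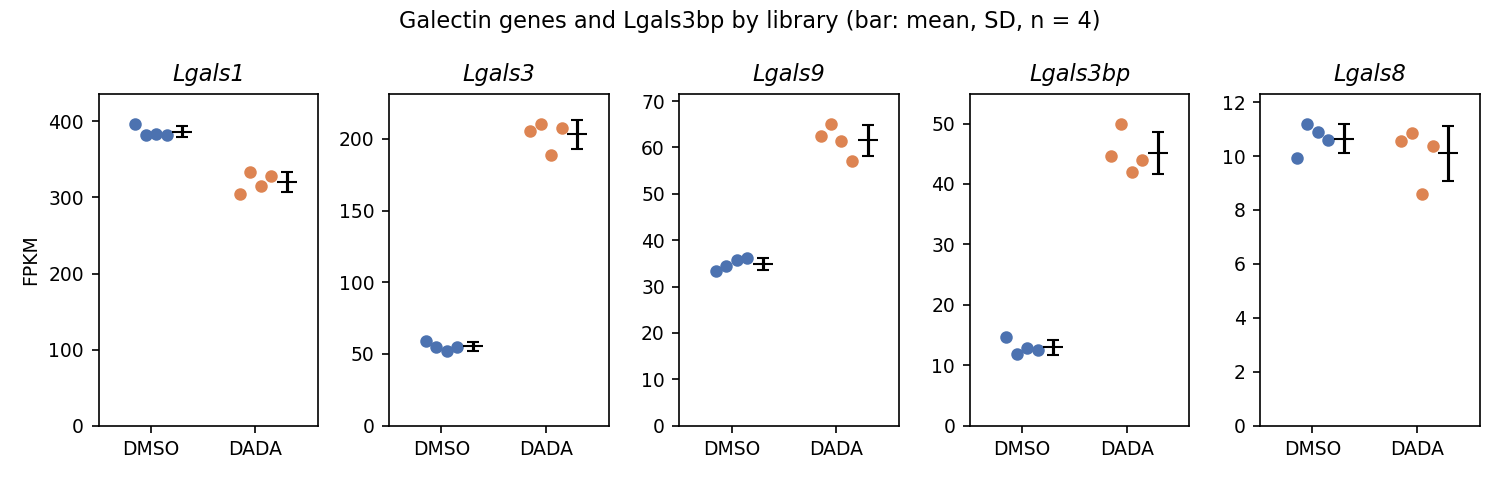
FPKM of *Lgals1*, *Lgals3*, *Lgals9*, *Lgals3bp* and *Lgals8*, 1 panel per gene with its own axis from 0. Each point is 1 library, and the black bars give the mean and SD of the 4 libraries of a group. The DADA points lie above all DMSO points for *Lgals3*, *Lgals9* and *Lgals3bp*, below them for *Lgals1*. For *Lgals8* the groups overlap, with DADA 3 below all DMSO points.

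*Lgals3* (ENSMUSG00000050335, chromosome 14) encodes galectin-3, which is known to form lattices with surface glycoproteins of T cells and to mark damaged vesicles inside cells. In the DMSO libraries 1 to 4 it was at 59.1, 54.8, 52.3 and 54.8 FPKM. The DADA libraries 1 to 4 had 205, 211, 189 and 208 FPKM. Every DADA library was thus far above every DMSO library, and within each group the libraries lay close together, with coefficients of variation of 5.11% and 4.84%. The DMSO mean was 55.2 ± 2.82 FPKM and the DADA mean 203 ± 9.84 FPKM (SD, n = 4 each). This is a log2 fold change of 1.86 with a standard error of 0.0434 (adjusted p = 2.57e-10 by limma), and the exact permutation test gave p = 0.0286. Among the 10666 genes tested, this log2 fold change was at rank 102, counted from the largest increase. By mean FPKM, *Lgals3* moved from rank 1419 with DMSO to rank 269 with DADA, so it became one of the abundant transcripts of these cells.

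The promoter of *Lgals3* is shown because it belongs to the gene with the largest difference. The stretch is from RefSeq, build GRCm38.p6, chr14:47373610-47373889 on the plus strand, from 250 bases before the annotated start to 30 bases after it, written 5′ to 3′.
Lgals3: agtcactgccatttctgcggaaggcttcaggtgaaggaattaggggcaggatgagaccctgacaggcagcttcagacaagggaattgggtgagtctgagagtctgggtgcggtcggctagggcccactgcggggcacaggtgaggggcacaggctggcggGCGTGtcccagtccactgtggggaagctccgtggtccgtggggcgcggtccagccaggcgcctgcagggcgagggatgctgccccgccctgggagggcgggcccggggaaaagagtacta
The capitals mark the letters GCGTG, at positions -90 to -86 from the start. ACGTG or GCGTG, the core letters of the hypoxia response element, were searched on both strands and occur in 43.8% of the 32851 RefSeq promoters, so their presence here is common. Neither the core of the interferon-stimulated response element (ISRE; GAAA, any 2 bases, GAAA) nor TTCNNNGAA, the core of a STAT site, was found in the *Lgals3* window. Which start site these cells used was not measured.

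*Lgals9* (ENSMUSG00000001123, chromosome 11) encodes galectin-9, a ligand of TIM-3 that can induce death of activated T cells. Its values were 33.3, 34.5, 35.7 and 36.2 FPKM in the DMSO libraries 1 to 4 and 62.6, 65.1, 61.4 and 57.0 FPKM in the DADA libraries 1 to 4. The lowest DADA library was well above the highest DMSO library. From a mean of 34.9 ± 1.31 FPKM, *Lgals9* rose to 61.5 ± 3.38 FPKM (SD, n = 4 each). By limma, the log2 fold change of 0.80 had a standard error of 0.0423 and an adjusted p of 9.98e-08, with p = 0.0286 in the exact permutation test. It stood at rank 560 of the increases.

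*Lgals3bp* (ENSMUSG00000033880, chromosome 11) was at 14.7, 11.8, 12.9 and 12.5 FPKM in the DMSO libraries 1 to 4. With DADA, libraries 1 to 4 had 44.6, 49.98, 41.9 and 43.9 FPKM. All DADA libraries were above all DMSO libraries, although this gene varied most among the called genes, with coefficients of variation of 9.53% with DMSO and 7.63% with DADA. The mean rose from 13.0 ± 1.24 to 45.1 ± 3.44 FPKM (SD, n = 4 each), a log2 fold change of 1.72 with a standard error of 0.0682 (adjusted p = 1.28e-08 by limma, p = 0.0286 in the exact permutation test), at rank 120 of the increases. *Lgals3* and *Lgals3bp* encode a lectin and a glycoprotein that it binds. *Lgals3* was 4.27 ± 0.295 times (SD, n = 4) the level of *Lgals3bp* with DMSO and 4.51 ± 0.219 times with DADA, and the libraries of both groups overlapped in this ratio.

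The promoters of *Lgals9* and *Lgals3bp* are shown because both genes rose and both are known interferon-stimulated genes. They are from RefSeq, build GRCm38.p6, on the minus strand, at chr11:78984895-78985174 for *Lgals9* and chr11:118401930-118402209 for *Lgals3bp*, again from 250 bases before to 30 after the annotated start.
Lgals9: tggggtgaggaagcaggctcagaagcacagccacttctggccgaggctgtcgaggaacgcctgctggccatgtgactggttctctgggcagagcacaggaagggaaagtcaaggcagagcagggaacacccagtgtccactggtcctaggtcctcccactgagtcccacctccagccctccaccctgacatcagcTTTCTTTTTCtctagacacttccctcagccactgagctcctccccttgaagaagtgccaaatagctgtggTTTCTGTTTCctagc
Lgals3bp: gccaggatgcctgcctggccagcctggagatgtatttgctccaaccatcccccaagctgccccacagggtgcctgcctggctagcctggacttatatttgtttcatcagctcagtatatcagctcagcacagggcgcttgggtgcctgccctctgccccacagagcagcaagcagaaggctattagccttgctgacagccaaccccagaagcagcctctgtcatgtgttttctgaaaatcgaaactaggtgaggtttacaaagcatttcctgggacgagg
The capitals in *Lgals9* mark 2 matches to the ISRE core, read on the opposite strand, at positions -55 to -46 and 16 to 25 counted from the start. The *Lgals3bp* window has no match to any of the letters searched. The ISRE core occurs on either strand in 3.44% of all 32851 promoters, and TTCNNNGAA in 8.30%. Of the interferon-stimulated genes listed below, 12 had a promoter in the table, and 8 of these held the ISRE core in any of their promoters. This counts genes, whereas the 3.44% counts promoters. A match of letters is a description of the sequence and no evidence of binding. Promoters were found for 4 of the 5 genes, and *Lgals1* had no entry.

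*Lgals1* (ENSMUSG00000068220, chromosome 15) encodes galectin-1, which is induced in activated T cells and limits their responses. It was the most abundant of the 5 genes, at 397, 382, 383 and 382 FPKM in the DMSO libraries 1 to 4. The DADA libraries 1 to 4 were lower, at 304, 333, 315 and 329 FPKM. Each DADA library was below each DMSO library, and DMSO 1 lay above the 3 other DMSO libraries. The DMSO mean, 386 ± 7.19 FPKM, was 1.21 times the DADA mean, 320.2 ± 13.4 FPKM (SD, n = 4 each). By limma, this log2 fold change of -0.27 had a standard error of 0.0307 and an adjusted p of 2.81e-05, and the exact permutation test gave p = 0.0286. GENCODE M21 names 2 pseudogenes of *Lgals1*, neither of which is a row of the table. How fragments that match several loci were assigned is not given in the sources used here.

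*Lgals8* (ENSMUSG00000057554, chromosome 13), whose galectin-8 binds exposed glycans of damaged vesicles, was the least abundant. It was at 9.93, 11.2, 10.9 and 10.6 FPKM in the DMSO libraries 1 to 4. Those treated with DADA had 10.6, 10.8, 8.61 and 10.4 FPKM. The groups overlapped, and only DADA 3 lay below all DMSO libraries. The log2 fold change was -0.07 with a 95% interval of -0.22 to 0.08 (limma, adjusted p = 0.361; exact permutation test, p = 0.429). Without DADA 3 it was -0.01. *Lgals8* shares 155 exonic bases with *Heatr1* on the opposite strand, and whether the counting used strand is not given. *Heatr1*, named for this overlap, fell from 42.5 ± 1.56 to 26.4 ± 0.824 FPKM (SD, n = 4; log2 fold change -0.67, limma), and its part in the value of *Lgals8* was not tested.

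The order of the levels was the same in both groups, namely *Lgals1*, *Lgals3*, *Lgals9*, *Lgals3bp* and *Lgals8*. In neither group did the 4 values of a gene overlap with those of the next one in this order. The distances between the genes differed, however. *Lgals1* was 79.3% ± 0.236 (SD, n = 4) of the summed FPKM of the 4 galectins with DMSO, and 53.8% ± 1.18 with DADA. This sum leaves out other galectins, such as *Lgals4*, with means of 8.96 FPKM with DMSO and 7.81 FPKM with DADA. *Lgals3* made up 11.3% ± 0.402 with DMSO and 34.1% ± 0.981 with DADA, and *Lgals9* 7.18% ± 0.370 and 10.3% ± 0.612. The share of *Lgals8* was 2.19% ± 0.144 with DMSO and 1.70% ± 0.136 with DADA. The summed FPKM of the 4 galectins was 482 to 499 in the DMSO libraries and 573 to 620 in the DADA libraries. The mean of *Lgals3* was higher by 148 FPKM with DADA and that of *Lgals9* by 26.6 FPKM, whereas the mean of *Lgals1* fell by 65.9 FPKM. Within libraries, *Lgals3* was at 0.143 ± 0.00504 times the level of *Lgals1* with DMSO and 0.635 ± 0.0313 times with DADA (SD, n = 4). These shares and ratios are given as a description, with no test.

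**Figure D2:**
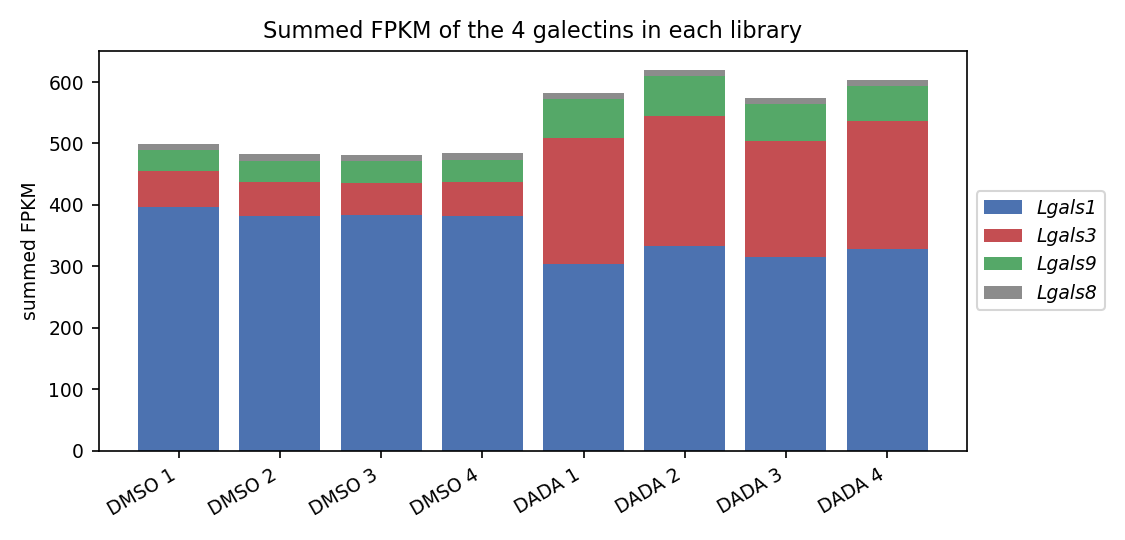
Summed FPKM of *Lgals1*, *Lgals3*, *Lgals9* and *Lgals8* in each of the 8 libraries, with the genes stacked from an axis at 0. The columns reach 482 to 499 FPKM with DMSO and 573 to 620 FPKM with DADA, and the red part, *Lgals3*, is taller in every DADA library than in any DMSO library.

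Other genes of the galectin fold were low, and none of the 3 tested was called, where 66.2% of all genes tested were called. With 3 genes tested, this count says little about the fold. Of the 7 listed, 6 were rows of the table and 3 passed the filter, and *Lgals6* was not analysed here. *Lgals4*, a tandem-repeat galectin of the gut, was at 8.32, 7.31, 9.89 and 10.3 FPKM in the DMSO libraries 1 to 4, and the DADA values were 8.11, 7.76, 8.28 and 7.10 FPKM. These overlapping values gave a log2 fold change of -0.17 with a 95% interval of -0.38 to 0.04 (limma, adjusted p = 0.139), and without DMSO 2, the lowest DMSO library, it was -0.25 with a call (limma, adjusted p = 0.0172). *Lgals7*, a prototype galectin of stratified epithelia, lay between 0.990 and 1.42 FPKM with DMSO and between 0.656 and 1.29 FPKM with DADA (log2 fold change -0.17, 95% interval -0.40 to 0.07, limma, adjusted p = 0.184). Without DADA 4 its log2 fold change was -0.25 with a call (limma, adjusted p = 0.0444). *Lgalsl*, the gene of a galectin-related protein, lay between 3.76 and 4.07 FPKM with DMSO and between 3.29 and 3.90 FPKM with DADA (log2 fold change -0.10, 95% interval -0.22 to 0.02, limma, adjusted p = 0.140). Quantile normalization gave calls for *Lgals7* (-0.44) and *Lgalsl* (-0.21). *Grifin*, known as a lens protein, did not pass the filter, with a range of 0.439 to 0.874 FPKM for DMSO and 0.301 to 0.632 FPKM for DADA. *Lgals2* and *Lgals12* were listed at 0 in all 8 libraries.

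**Figure D3:**
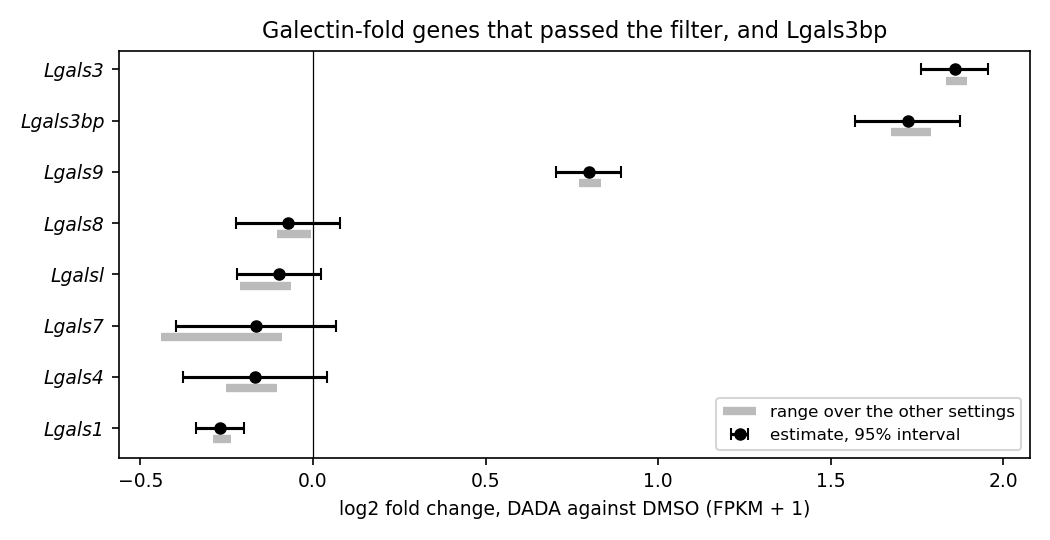
Log2 fold change of FPKM + 1, DADA against DMSO, for *Lgals3bp* and the 7 galectin-fold genes that passed the filter. Points and black bars are the estimate and its 95% interval, and the gray bars span the values under the other settings. *Lgals3*, *Lgals3bp* and *Lgals9* lie right of 0, *Lgals1* left of it, and the intervals of the 4 other genes include 0.

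Galectins act on glycoproteins, and 20 genes of glycoproteins known to bind them were listed. All 20 were tested, 10 rose and 6 fell (50% and 30%), where 30.9% of all genes tested rose and 35.3% fell. Their median log2 fold change was 0.08, against -0.02 over all genes tested. The largest increases were in *Cd7*, a receptor for galectin-1, and *P4hb*, a disulfide isomerase that binds galectin-9 at the cell surface. *Cd7* was low, and rose from 0.155 ± 0.104 to 1.70 ± 0.517 FPKM (SD, n = 4; log2 fold change 1.21, limma, adjusted p = 2.63e-05; 2.91 with a pseudocount of 0.1). Being below 1 FPKM in every DMSO library, *Cd7* passed the filter only through the DADA libraries. Its place among the 10 that rose rests on that group. *P4hb* rose from 129 ± 3.73 to 296 ± 1.62 FPKM (log2 fold change 1.20, limma, adjusted p = 7.88e-11). The largest decreases were in the checkpoint receptor genes *Lag3* (log2 fold change -2.47), whose product binds galectin-3, and *Pdcd1* (-0.96), whose PD-1 binds galectin-9. The partners best known for T cells, singled out for that role after their values were seen, moved in both directions. *Havcr2*, the gene of the galectin-9 receptor TIM-3, fell from 5.68 ± 0.288 to 4.36 ± 0.447 FPKM (log2 fold change -0.32, limma, adjusted p = 0.00134), while *Lgals9* rose. *Tnfrsf9*, the gene of 4-1BB, to which galectin-9 binds, rose from 462 ± 2.15 to 850.0 ± 16.6 FPKM (log2 fold change 0.88, limma, adjusted p = 2.23e-10). *Ptprc*, the gene of the galectin-1 receptor CD45, had means of 281 ± 7.99 and 288 ± 6.46 FPKM and was not called (log2 fold change 0.04, limma, adjusted p = 0.230).

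The glycans that galectins recognize are built by Golgi enzymes, of which 16 were listed and tested, with 8 higher, 2 lower and 6 not called (50% and 12.5%, against 30.9% and 35.3% of all genes). Their median log2 fold change was 0.12. *Gcnt1*, the enzyme of core 2 branches on O-glycans, had the largest increase, from 0.602 ± 0.174 to 2.41 ± 0.273 FPKM (SD, n = 4; log2 fold change 1.09, limma, adjusted p = 2.86e-06; 1.87 with a pseudocount of 0.1). Being below 1 FPKM in every DMSO library, *Gcnt1* passed the filter only through the DADA libraries. Its place among the 8 higher genes rests on that group. *B4galt5*, a galactosyltransferase, rose from 14.1 ± 0.579 to 28.1 ± 0.859 FPKM (log2 fold change 0.94, limma, adjusted p = 1.11e-08). The decreases were small, in *Mgat5*, which starts the branch of N-glycans that galectin-3 prefers (3.21 ± 0.162 to 2.72 ± 0.122 FPKM, log2 fold change -0.18, limma, adjusted p = 0.0111), and *Man2a1*, a mannosidase that acts before it (-0.16).

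Sialic acid can cap the galactose of these glycans, and in α2,6 linkage it hinders the binding of galectin-1. Of 10 genes of sialic acid transfer, supply and removal, 5 rose, 3 fell and 2 were not called (50% and 30%, against 30.9% and 35.3% of all genes tested), and the median log2 fold change was 0.12. *St6gal1*, the α2,6-sialyltransferase of N-glycans, rose from 1.47 ± 0.0891 to 6.27 ± 1.09 FPKM (SD, n = 4; log2 fold change 1.54, limma, adjusted p = 3.20e-07), and *St3gal1*, an α2,3-sialyltransferase of O-glycans, from 5.89 ± 0.167 to 9.67 ± 0.740 FPKM (0.63). *St3gal6*, another α2,3-sialyltransferase, fell from 11.03 ± 1.34 to 5.51 ± 0.698 FPKM (log2 fold change -0.89, limma, adjusted p = 1.52e-05), and *Slc35a1*, the transporter of activated sialic acid into the Golgi, had a log2 fold change of -0.27.

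Inside the cell, galectin-3, galectin-8 and galectin-9 gather on damaged vesicles, where autophagy receptors and the ESCRT machinery act. Of 13 genes listed for this response, 12 passed the filter, of which 7 rose, 2 fell and 3 were not called (58.3% and 16.7%, against 30.9% and 35.3% of all genes tested), with a median log2 fold change of 0.15. The 9 called of 12 are close to the 66.2% called over all genes. *Chmp4b*, an ESCRT-III subunit, rose from 87.5 ± 5.44 to 141 ± 6.16 FPKM (SD, n = 4; log2 fold change 0.68, limma, adjusted p = 6.35e-07). *Trim16*, the gene of a ubiquitin ligase that binds galectin-3, rose from 0.966 ± 0.0814 to 1.88 ± 0.0740 FPKM (log2 fold change 0.55, limma, adjusted p = 1.37e-05). The 2 lower genes, the lysosome regulator *Tfeb* (-0.22, limma, adjusted p = 0.0329) and the ESCRT-I gene *Tsg101* (-0.08, limma, adjusted p = 0.0448), had overlapping groups. *Tfeb* lost its call without DMSO 1, DMSO 2, DADA 3 or DADA 4 (limma, adjusted p = 0.0543 to 0.0901), and *Tsg101* without any of DMSO 1, 2 and 3 or DADA 1, 2 and 3 (limma, adjusted p = 0.0684 to 0.116). *Calcoco2*, the listed gene that did not pass the filter, was at 0 in all 8 libraries.

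As a reference for *Lgals9* and *Lgals3bp*, 16 interferon-stimulated genes were listed. All 16 rose (100%, against 30.9% of all genes tested). Their median log2 fold change was 2.88, against -0.02 over all genes tested. *Ifit1*, *Ifit3*, *Usp18*, *Oasl1*, *Rsad2*, *Rtp4* and *Cmpk2*, named here for this reason, were below 1 FPKM in every DMSO library. They passed the filter only through the DADA libraries and could hardly have been called lower. Both the count of 16 and the median include them. With the pseudocount of 1, the largest log2 fold changes were 5.16 in *Isg15*, a ubiquitin-like modifier, and 4.27 in *Usp18*, which removes it from proteins (limma, adjusted p = 3.78e-12 and 4.75e-11), and with a pseudocount of 0.1 that of *Usp18* was 5.41. By the ratio of mean FPKM the order differs, with 80.6 in *Rsad2* and 64.8 in *Oasl1*, both named after their values were seen, against 46.5 in *Isg15* and 47.8 in *Usp18*. The DMSO means under these ratios were 0.120 FPKM in *Rsad2*, 0.298 in *Oasl1*, 0.637 in *Usp18* and 3.16 in *Isg15*. Ratios over means this close to 0 are imprecise, least so for *Isg15*. The 0.80 of *Lgals9* and the 1.72 of *Lgals3bp* were below the median of the list. Earlier results of these data were known when the list was chosen, so its direction is no independent evidence.

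**Figure D4:**
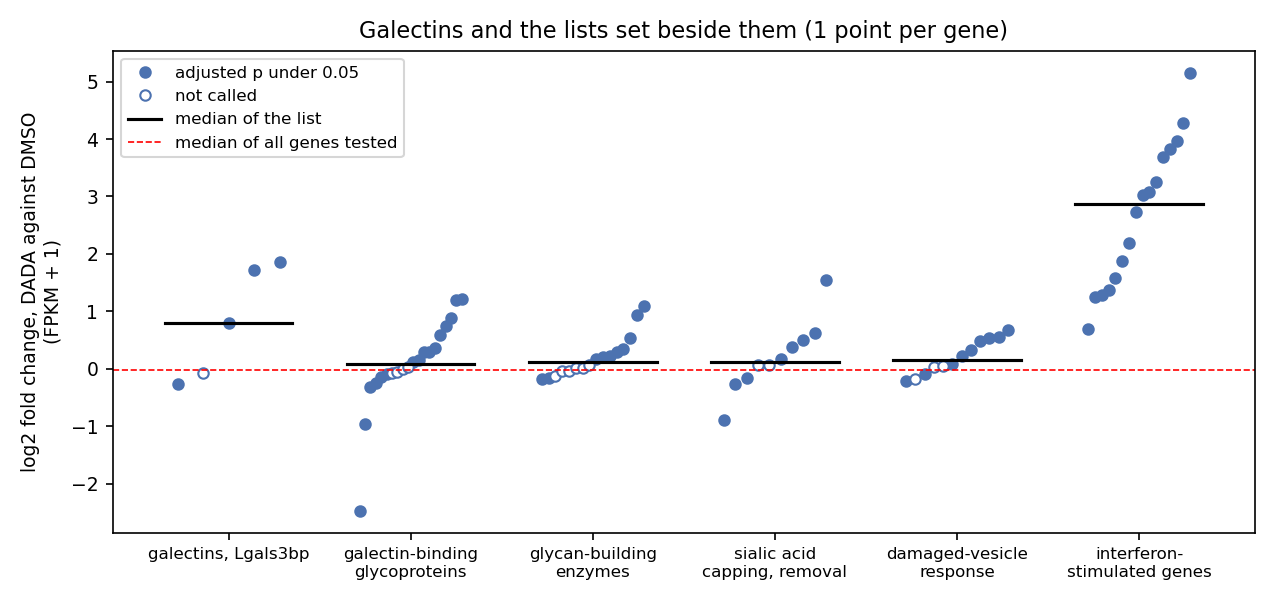
Log2 fold change of FPKM + 1, DADA against DMSO, with 1 point per gene for the galectins and *Lgals3bp* and for the 5 lists set beside them. Filled points have an adjusted p-value under 0.05, black lines are the list medians and the dashed line is the median of all genes tested, -0.02. Points lie on both sides of that line in every list other than the interferon-stimulated genes, which are all above it.

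The genes with the most similar pattern were found by the root mean square difference of log2(FPKM + 1), each gene set to its own DMSO mean, over the 8 libraries, among 8077 named genes whose mean was 5 FPKM or higher. For *Lgals3* they were *Emilin2* (difference 0.0693), an extracellular matrix glycoprotein gene, *Mxi1* (0.0842), an antagonist of MYC, and *Pgm1* (0.0849), an enzyme between glycogen and glycolysis. For *Lgals3bp* they were *Zbp1* (0.0889), a nucleic acid sensor induced by interferon, then *Mxi1* (0.102) and the cytokine gene *Il24* (0.103). *Lgals9* was closest to *Sat1* (0.0405), the gene of a polyamine acetyltransferase, *C1qtnf12* (0.0468) and *Nrn1* (0.0478). *Lgals1* was closest to *Pmpca* (0.0239), *Cebpz* (0.0256) and *Gm10053* (0.0264), and *Lgals8* to *Cenpp* (0.0339), *Plekhm2* (0.0488) and *Capns1* (0.0531). With 2 groups, such a likeness mostly reflects a similar difference between the groups, and it is a description with no test.

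Galectin-3 is also abundant in macrophages, so markers of other cells were measured beside these results. The 6 CD8 T cell markers, *Cd3d*, *Cd3e*, *Cd3g*, *Cd8a*, *Cd8b1* and the T cell receptor alpha constant gene, summed to 934 to 954 FPKM in the DMSO group and 1103 to 1156 FPKM in the DADA group. Of 10 macrophage and monocyte markers, *Csf1r*, *Adgre1*, *C1qa*, *C1qb* and *C1qc* were listed at 0 in every library, and 4 others reached at most 0.215 FPKM. Only *Cd68*, a lysosomal protein gene, passed the filter, and with it the list summed to 3.52 to 3.99 FPKM with DMSO and 5.24 to 5.93 FPKM with DADA. One marker each passed the filter of 5 dendritic cell, 6 B cell, 3 CD4 T cell and 4 stromal and endothelial markers, namely *Zbtb46*, *Cd79b*, *Zbtb7b* and *Pecam1*. These lists summed to 3.69 to 4.61, 2.59 to 3.54, 16.1 to 17.2 and 7.04 to 8.18 FPKM with DMSO and to 1.89 to 2.48, 2.36 to 3.09, 15.2 to 15.7 and 9.34 to 10.4 FPKM with DADA. The 3 NK cell markers summed to 0 to 0.0959 FPKM with DMSO and 0.144 to 0.346 FPKM with DADA. For the 4 erythroid markers the sums were 0.0920 to 0.241 FPKM with DMSO and 0 to 0.155 FPKM with DADA. No marker of these lists passed the filter.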

How the data were processed

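Bulk RNA-seq of 8 libraries, 4 per group, was analysed, with groups taken from the library titles. The authors deposited FPKM, 1 value per gene and library. The submitters' processing notes name HISAT2 2.0.5, StringTie 1.3.3, Picard 1.41 and SAMtools 0.1.18, and the builds GRCm39 and GRCh38, without saying which build these values used. The labels and the study's methods name different library kits, and the strand setting is not given in the sources used here.

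The FPKM values were used as deposited. DADA was compared with DMSO by a linear model on log2(FPKM + 1) in limma 3.58.1 (R 4.3.3), using eBayes with a trend and Benjamini-Hochberg adjustment over 10666 genes. On simulated data for DADA against DMSO, with 10519 genes tested, it recovered 180 of 200 changed genes and made 6 false calls. The simulation used independent normal errors and placed no changes in genes of low level. It also held far fewer changed genes than were called in the data, so these rates need not hold here. For single genes, an exact permutation test (two-sided) was added. The depth was estimated from 4431 genes with 1 transcript in GENCODE M21. Between 8000000 and 22000000 fragments, the depth with the largest share of low values near whole fragments was taken. At that depth 39.8% to 45.0% lay within 0.1 of a whole number, where chance gives 20% at a depth fixed beforehand. The search maximized this share, and multiples of a depth also give whole numbers, so the estimate depends partly on the range searched. No count test was therefore run.

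The genes, lists and motifs were chosen with earlier results of these data known. Named were the 5 genes, the galectin fold, the 2 called members of each list with the largest change in each direction and the 3 nearest patterns, and others are marked. Protein features were not analysed here. Promoters are from RefSeq (GRCm38.p6). The alternatives were a pseudocount of 0.1, no filter, a mean of 5 FPKM, rescaling to the same total, median-ratio scaling, quantile normalization, eBayes without trend, a replicate block, each library left out, and leaving out the assembled transcripts. Python 3.11.15, numpy 2.4.6, pandas 2.3.3, scipy 1.17.1 and matplotlib 3.10.9 were used.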

Additional observations from a re-analysis of the deposited data

Results flagged for a closer look

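Dixon's ratio, a library's distance to its nearest neighbor over the spread of its group, passed its 95% value in 6 of 82 gene and group combinations, where chance gives about 1 in 20. *Lgals1* was at 397 FPKM in DMSO 1 and at 382 to 383 FPKM in the other DMSO libraries, all of them above the DADA libraries. *Cd7* was listed at 0 in DMSO 3 and at 0.190 to 0.219 FPKM in the other DMSO libraries. *Gcnt1* was at 2.82 FPKM in DADA 3 against 2.26 to 2.31 FPKM, and *Usp18* at 31.8 FPKM in DADA 2 against 29.9 to 30.2 FPKM. In DMSO 2, *Pmpca* was at 52.2 FPKM against 53.7 to 53.9 FPKM, and *Zbp1* at 13.6 FPKM against 16.3 to 16.9 FPKM.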

How the results depend on the processing

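All 5 genes kept their direction and their side of the threshold under the 17 alternatives, with log2 fold changes of 1.83 to 1.89 for *Lgals3*, 1.67 to 1.79 for *Lgals3bp*, 0.77 to 0.83 for *Lgals9*, -0.29 to -0.24 for *Lgals1* and -0.11 to -0.01 for *Lgals8*. For 26 genes, namely these 5, *Lgals4*, *Lgals7*, *Lgalsl* and the genes named by largest change in each list, 412 log2 fold changes kept direction and side, 18 lost a call, 4 gained one and none reversed. In these 26, the lost calls were those of *Tfeb* (6) and *Tsg101* (12), and the gained ones those of *Lgals4*, *Lgals7* and *Lgalsl*. The cause was not tested. Over all genes, 2458 to 4007 were called higher and 3283 to 4116 lower. Calls numbered 15 to 18 among the glycoproteins, 8 to 10 among the glycan enzymes, 6 to 8 for sialic acid, 6 to 9 for damaged vesicles and 13 to 16 among the interferon-stimulated genes, with the lowest count of each list under a filter at a mean of 5 FPKM, which tests fewer genes (for the glycoproteins also after rescaling to the same total).

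Libraries with the same number did not deviate together (correlations of their deviations 0.095, -0.12, -0.088 and 0.075), no DMSO library correlated best with the DADA library of its own number, and nothing says that the number marks a shared source. With the replicate number as a block, 3251 genes were called higher and 3744 lower, and the log2 fold change of *Lgals3* was 1.86. Among the same 26 genes the block changed only the call of *Tsg101* (limma, adjusted p = 0.0831).

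FPKM carries no exact depth, so the counting error of genes at low FPKM, such as *Lgals7* and *Cd7*, could not be computed.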
